A study of Homo sapiens with 9 samples.

Results

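The replicative helicase unwinds DNA at every replication fork, and the transcripts of 10 of its genes are described here: the ring subunits MCM2, MCM3, MCM4, MCM5, MCM6 and MCM7, the co-factor CDC45, and the GINS subunits GINS1, GINS2 and GINS4. They were taken by name, as listed genes of the complex, from 14936 genes named in at least 1 library, and all 10 were among the 12286 genes with a mean high enough to test. GINS3, the remaining GINS subunit, was kept outside the list and is given beside it. The RNA came from the human melanoma line WM3248, taken 24 h after ARN22089 was added, and its poly-A transcripts were sequenced. ARN22089 is a compound made to block the contact between CDC42-type GTPases and their effectors, the PAK kinases among them. The groups are 0 µM (DMSO, given to cells the labels call untreated), 4 µM and 6 µM, each with 3 libraries. All libraries share the 1 cell line, the same medium and the same harvest time, and the labels name no transgene or genotype. Whether replicate libraries come from different cultures is not stated, so a p-value here speaks only of how far these libraries spread, and that spread may be technical.

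MCM2 to MCM7 form a ring that is loaded onto origins in G1 by the origin recognition complex with CDC6 and CDT1. The ring stays inactive until S phase, when the kinases CDC7 and CDK2 let CDC45 and GINS join it to form the CMG helicase. Transcription of these genes is known to be driven by E2F factors as cells leave quiescence, and cells out of the cycle lose MCM proteins, which is why MCM subunits are used in pathology as markers of cells able to divide.

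Levels are in FPKM, fragments scaled to transcript length and to each library's mapped fragments, which allows genes of different length to be set side by side. Each library had been assembled separately, so a gene can be in 1 piece in a library and in several in the next. A gene's level is the sum of the FPKM of its transcripts (the summed value), and, as an alternative, an average of FPKM along the exonic bases that most libraries have in common (the consensus exon value). This alternative does not count pieces of a split gene on top of each other, and it includes any transcript that covers those bases, whatever gene it was named for. Differences are log2 differences of FPKM + 1 with their SE from limma, fitted over all genes, and adjusted p-values are Benjamini-Hochberg values over all genes tested. Because of the added 1 they understate the change of low genes. FPKM is relative to the library, so fewer cycling cells and less of this RNA per cell cannot be told apart.

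The libraries held between 26506 and 30798 transcripts. Reads per library are unknown, and relative depth was lowest, 0.802 of the median library, in replicate 3 at 4 µM, and highest, 1.34, in replicate 1 at 6 µM. The FPKM of a library summed to between 587999 and 689699, except in replicate 3 at 0 µM, where the sum was 1061112. Of 8 melanocyte lineage markers all were found in these cells, and SOX10, the lineage's transcription factor, was between 102.5 and 160.0 FPKM in every library. DCT, a pigment enzyme, was at 55.3, 141.0 and 77.4 FPKM at 0 µM, 245.7, 281.1 and 257.7 FPKM at 4 µM, and 217.7, 365.2 and 289.0 FPKM at 6 µM. Its consensus exon value in replicate 1 at 6 µM was 96.0 FPKM. The summed level of the 8 markers was between 1385 and 2055 FPKM at 6 µM and between 406.4 and 1388 FPKM at 0 µM. S100B was its largest part in every library except replicate 2 at 0 µM. It was at 726.2, 97.0 and 1137 FPKM at 0 µM and 946.0, 1479 and 912.1 FPKM at 6 µM, so the sum largely follows this gene. All 8 markers were higher at 4 and at 6 µM than at 0 µM, by median log2 differences of 0.933 and 1.145, and none passed limma's test there. Along a line over the 3 doses DCT alone of them passed (adjusted p = 0.0396, limma), where 102 of 12286 genes passed with a rising line. The part of the marker sum in the results below was not tested. Of markers of other cells, PTPRC and CD3E (immune), KRT5, KRT1 and TP63 (keratinocyte) and CDH5 and VWF (endothelial) were at 0 in all 9 libraries. The keratinocyte list summed to between 28.9 and 38.8 FPKM at 6 µM and between 29.6 and 30.1 FPKM at 0 µM, nearly all of it KRT10, and the fibroblast list, led by COL1A2 and LUM, to between 30.5 and 54.9 FPKM at 6 µM and between 16.8 and 62.8 FPKM at 0 µM. PECAM1, an endothelial marker, had 2.25, 1.65 and 1.80 FPKM in the 6 µM libraries, while the other 6 libraries list it at 0. KDR, of the same list, went the other way, at 1.15, 0.98 and 1.44 FPKM at 0 µM and 0.83, 0 and 0 FPKM at 6 µM. The endothelial list summed to between 1.65 and 3.08 FPKM at 6 µM and between 0.98 and 1.44 FPKM at 0 µM. The part of these in the results was not tested. The immune list summed to between 2.62 and 3.36 FPKM at 6 µM and between 3.82 and 4.45 FPKM at 0 µM, but reached 146.4 FPKM at 4 µM. CD68, a lysosomal protein, accounted for 142.1 FPKM of that in replicate 3. It was listed at 0 in the 8 other libraries, yet its consensus exon value was between 43.98 and 239.1 FPKM in all 9, so its exons were covered throughout by transcripts not named for it.

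Promoters are shown because the genes varied together over the libraries and are known E2F targets. The RefSeq promoter table (GRCh38.p14, 250 bases before to 50 after each gene start) held 7 of the 10 genes. It was searched on both strands for 4 E2F words, TTTGGCGC, TTTCGCGC, TTTCCCGC and TTTGCCGC. At least 1 word was present in 6 of the 7 promoters, those of MCM2, MCM3, MCM6, MCM7, GINS1 and GINS2, against 3.325% of 27305 promoters. Outside the list, the table also held GINS3, with 1 E2F word beginning at -5 from the gene start, and MCM10, with none. A match is a description of letters, not a bound site, and the CDC45 window without one says nothing of the factor. The 4 windows below are RefSeq sequence on the gene's own strand, with the matched letters in capitals. They were chosen to show a ring subunit with matches just downstream of the gene start and the one with the most matches. The other 2 are the GINS members in the table.

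MCM2 (chr3:127598357-127598436, plus strand): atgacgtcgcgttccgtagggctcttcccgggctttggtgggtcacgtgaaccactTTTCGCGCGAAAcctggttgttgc

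MCM6 (chr2:135876519-135876598, minus strand): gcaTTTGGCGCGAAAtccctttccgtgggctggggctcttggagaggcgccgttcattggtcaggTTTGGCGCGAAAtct

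GINS1 (chr20:25407619-25407698, plus strand): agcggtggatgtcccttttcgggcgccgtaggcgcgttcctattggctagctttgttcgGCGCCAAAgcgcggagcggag

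GINS2 (chr16:85688942-85689021, minus strand): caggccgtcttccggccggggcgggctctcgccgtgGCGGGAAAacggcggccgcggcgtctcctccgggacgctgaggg

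In MCM2 the capitals are the overlapping matches of a word and its reverse complement. In MCM6 they are, at each of 2 places, a word overlapping with the reverse complement of another, TTTCGCGC, and its 4 matches began at -152, -148, -90 and -86 from the start. In MCM3 and MCM7 the match nearest the start began at -4 and -9. The CCAAT word, which is bound by NF-Y, was in 6 of the 7 promoters, all but that of MCM2, against 35.7% of all promoters. The CHR words TTTGAA and TTCGAA, which late cell cycle genes carry, were in 1 of 7, that of MCM6, against 16.62% of all promoters. The assembled transcripts began near the RefSeq start for MCM2, MCM6, GINS1 and GINS2, with medians of the main transcript's first base at -19, -15, 6 and -45 bases over the 9 libraries. They began farther off for MCM3 (-229), MCM7 (-133) and CDC45 (434 bases downstream), so for those 3 the window searched is less surely the promoter in use here.

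**Figure D1:**
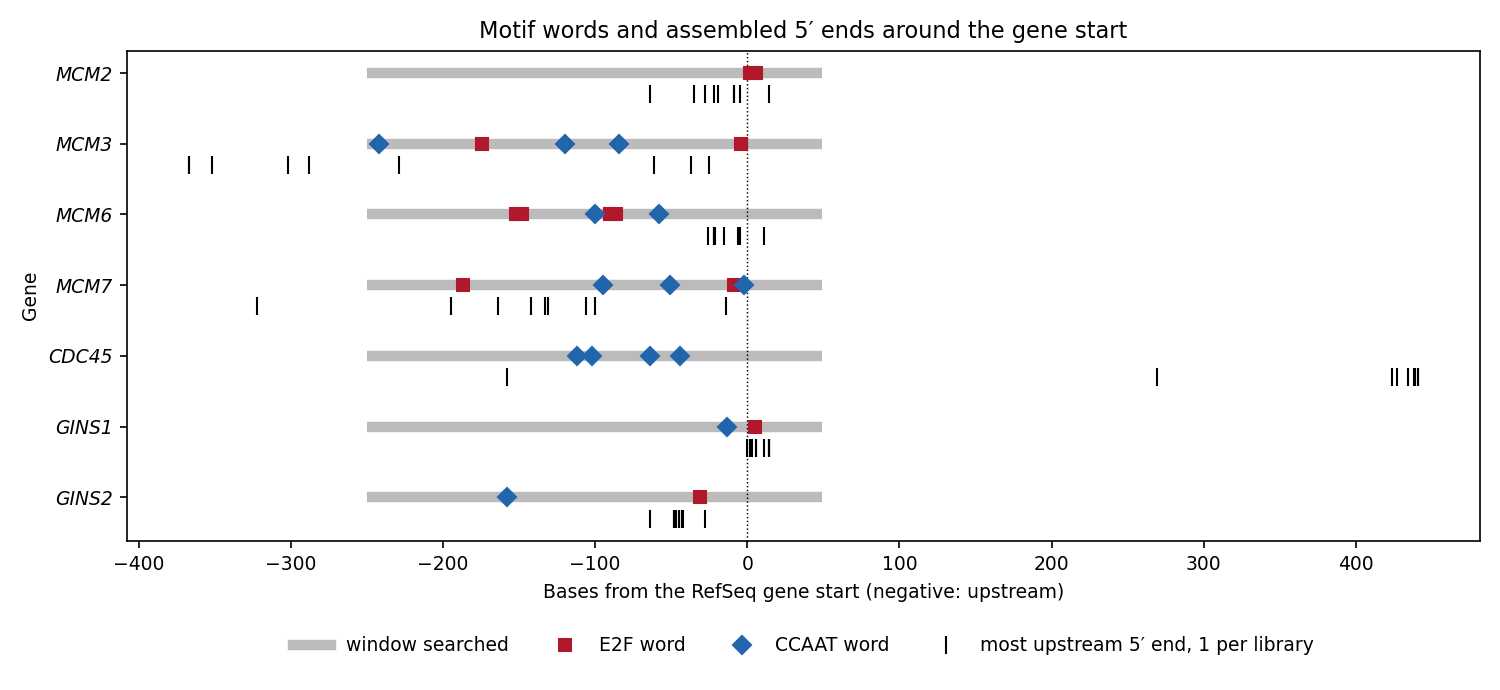
The horizontal axis gives bases from the RefSeq gene start for the 7 members in the promoter table. Grey bars are the window searched, and red squares and blue diamonds the first base of E2F and CCAAT words. Black ticks are the most upstream assembled base in each of the 9 libraries. CDC45 shows CCAAT words and no E2F word, and its assembled ends lie mostly downstream of the window.

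The 10 transcripts were lower at 6 µM than at 0 µM, by a median log2 difference of -1.10 over the members, against -0.03 over all 12286 genes. In every member the 3 libraries at 6 µM lay below the 3 at 0 µM, an arrangement that 14.1% of all genes showed in that direction. Mean levels at 6 µM were between 34.2% (MCM2) and 71.6% (MCM3) of those at 0 µM. In all 10 the mean at 4 µM was intermediate, an order that 26.7% of all genes had. No member passed limma's test of 6 with 0 µM with the summed value, where 0.317% of all genes did, while all 10 had an unadjusted p below 0.05 with a lower level, against 9.65% of all genes. On consensus exon values all 10 differences at 6 µM were negative. Of these, 7 passed limma's test, where 2.79% of all genes passed with a lower level.

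**Figure D2:**
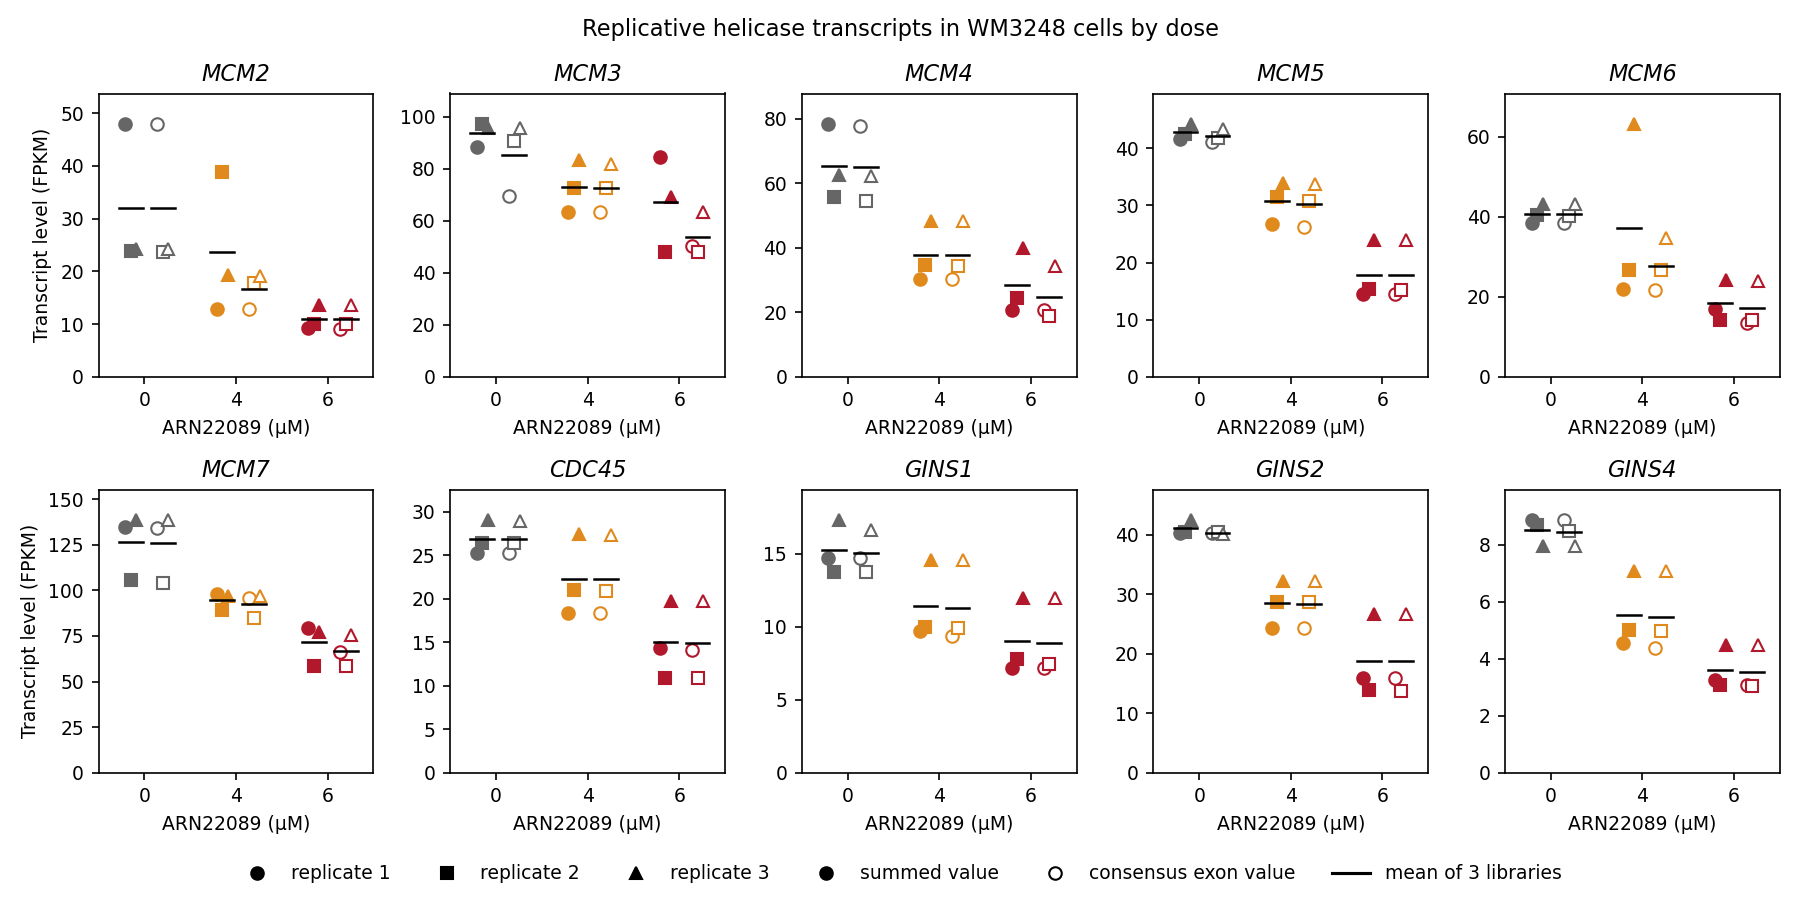
FPKM of the 10 genes in each library (vertical axes, linear from 0) by dose of ARN22089 in µM (horizontal axes), with filled symbols for the summed value, open symbols for the consensus exon value, circles, squares and triangles for replicates 1, 2 and 3, and bars for the mean of 3 libraries. In every panel and with both values the symbols at 6 µM lie below those at 0 µM, and replicate 3 is mostly the highest at 4 and 6 µM.

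MCM2 (chromosome 3, 127598411 to 127622436, RefSeq GRCh38.p14) encodes a ring subunit that forms, with MCM5, the gate through which DNA enters and that also binds histones H3 and H4. Its summed level was 48.0, 23.9 and 24.3 FPKM at 0 µM, 12.9, 38.9 and 19.3 FPKM at 4 µM, and 9.21, 10.0 and 13.6 FPKM at 6 µM. The 4 µM libraries overlapped those at 0 µM through replicate 2, in which the gene was assembled as pieces of 2 and 14 exons whose values add up, and the consensus exon value there was 17.9 FPKM. The difference between 6 and 0 µM was -1.41 ± 0.41 (SE, adjusted p = 0.137, limma) with the summed value and -1.42 ± 0.28 (adjusted p = 0.0376) with the consensus exon value, the largest of the 10. Replicate 1 at 0 µM stood well above the other 2 libraries of its dose, and without it the consensus difference was -1.09, the smallest of the 9 fits that leave out a library. In a fit that added the replicate number as a block, the consensus adjusted p of MCM2 was 0.0553 (limma). There 9 members, all but MCM2, passed, where 3.37% of all genes passed with a lower level.

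MCM3 (chromosome 6, 52264015 to 52284742), a ring subunit that sits beside MCM5, had the smallest difference of the 10. Its summed level was 88.2, 97.3 and 95.7 FPKM at 0 µM, 63.4, 72.7 and 83.4 FPKM at 4 µM, and 84.5, 47.9 and 69.0 FPKM at 6 µM. The high library at 6 µM is replicate 1, where a full assembly of 17 exons at 32.1 FPKM and a piece of 5 exons at 52.4 FPKM were added, while the consensus exon value was 50.3 FPKM. MCM3 was in pieces in replicate 1 at 0 µM too, at 61.0 and 27.3 FPKM. The difference between 6 and 0 µM was -0.51 ± 0.21 (adjusted p = 0.255, limma) with the summed value. On consensus exon values it was -0.65 ± 0.17, with an adjusted p of 0.0675 (limma), and of 0.0362 when the replicate number was a block.

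MCM4 (chromosome 8, 47960941 to 47978160) and MCM6 (chromosome 2, 135839626 to 135876443) are subunits that sit with MCM7 in a stable core of the ring. MCM4 was at 78.4, 55.7 and 62.4 FPKM at 0 µM, 30.5, 34.6 and 48.4 FPKM at 4 µM, and 20.8, 24.4 and 40.1 FPKM at 6 µM. Both treated doses lay below all 0 µM libraries, and they overlapped each other. MCM6 was at 38.5, 40.4 and 43.2 FPKM at 0 µM, 22.0, 26.6 and 63.2 FPKM at 4 µM, and 16.9, 14.3 and 24.1 FPKM at 6 µM. The value of 63.2 FPKM, the highest of the 9, joins pieces of 14 and 3 exons at 36.3 and 26.9 FPKM in replicate 3 at 4 µM, where the consensus exon value was 34.7 FPKM. At 6 against 0 µM the consensus differences were -1.40 ± 0.26 for MCM4 (adjusted p = 0.0333, limma) and -1.23 ± 0.23 for MCM6 (adjusted p = 0.0336). The summed differences were -1.22 ± 0.27 and -1.13 ± 0.36, with adjusted p-values of 0.0817 and 0.17.

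MCM5 (chromosome 22, 35400140 to 35455031), the other subunit of the gate, had the tightest groups of the ring at 0 µM. It was at 41.7, 42.4 and 44.3 FPKM at 0 µM, 26.8, 31.5 and 33.8 FPKM at 4 µM, and 14.4, 15.3 and 24.0 FPKM at 6 µM. The 3 doses did not overlap, and the mean was 71.7% of that at 0 µM at 4 µM and 41.9% at 6 µM. Its transcript had the same 17 exons in all 9 libraries, and in 8 of them it was the only one assembled. The difference between 6 and 0 µM was -1.25 ± 0.20 (adjusted p = 0.0507, limma) with the summed value and -1.23 ± 0.19 (adjusted p = 0.0265) with the consensus exon value. The deposited confidence bounds in single libraries did not meet between 6 and 0 µM, for example 13.4 to 15.4 FPKM in replicate 1 at 6 µM and 39.0 to 44.4 FPKM in replicate 1 at 0 µM.

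MCM7 (chromosome 7, 100092728 to 100101397), a core subunit whose gene also hosts microRNAs in an intron, had the highest level of the complex. It was at 134.7, 105.7 and 138.6 FPKM at 0 µM, 98.0, 89.0 and 96.6 FPKM at 4 µM, and 79.1, 58.6 and 76.9 FPKM at 6 µM. The 3 doses did not overlap. The difference between 6 and 0 µM was -0.81 ± 0.17 (adjusted p = 0.0677, limma) with the summed value and -0.90 ± 0.15 (adjusted p = 0.0283) with the consensus exon value.

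CDC45 (chromosome 22, 19479466 to 19520612) encodes the factor whose arrival turns the loaded ring into an active helicase. It was at 25.2, 26.5 and 29.1 FPKM at 0 µM, 18.4, 21.0 and 27.5 FPKM at 4 µM, and 14.3, 10.9 and 19.8 FPKM at 6 µM. Replicate 3 at 4 µM lay within the range of the 0 µM libraries, and replicate 3 at 6 µM lay within that of the 4 µM libraries. The difference between 6 and 0 µM was -0.84 ± 0.22 (adjusted p = 0.116, limma) with the summed value. The consensus difference was -0.84 ± 0.21, with an adjusted p of 0.0618 (limma), and of 0.0365 in the blocked fit.

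The GINS genes encode subunits of a 4-part ring that clamps CDC45 to the MCM ring. GINS2 lies on chromosome 16, 85676198 to 85688954. Its level was 40.3, 40.4 and 42.5 FPKM at 0 µM, 24.4, 28.8 and 32.3 FPKM at 4 µM, and 15.9, 14.0 and 26.7 FPKM at 6 µM. Both doses lay below all 0 µM libraries. It was the member with the simplest assembly, a single transcript of 5 exons in each of the 9 libraries, so that its summed value holds no added pieces. Even so its 6 µM difference of -1.14 ± 0.23 had an adjusted p of 0.0667 (limma) with the summed value and, at -1.12 ± 0.22, of 0.0367 with the consensus exon value, and its unadjusted p-values were 0.000915 and 0.000839. The unadjusted values were thus nearly the same while the adjusted ones, which depend on all genes tested, lay on either side of the threshold.

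GINS4 (chromosome 8, 41529261 to 41545030), the lowest of the 10, was at 8.88, 8.70 and 7.96 FPKM at 0 µM, 4.54, 5.00 and 7.09 FPKM at 4 µM, and 3.26, 3.08 and 4.49 FPKM at 6 µM. Its doses did not overlap. The difference between 6 and 0 µM was -1.06 ± 0.20 (adjusted p = 0.0624, limma) on summed values and -1.07 ± 0.18 (adjusted p = 0.0283) on consensus exon values. GINS1 lies on chromosome 20, 25407673 to 25448563. Its level was 14.7, 13.7 and 17.3 FPKM at 0 µM, 9.69, 9.98 and 14.5 FPKM at 4 µM, and 7.19, 7.81 and 11.97 FPKM at 6 µM. At 4 µM replicate 3 overlapped the 0 µM libraries. Its difference between 6 and 0 µM, -0.73 ± 0.23 with the summed value, did not pass limma's test (adjusted p = 0.159, and 0.0864 with the consensus exon value), and with the block on the consensus exon value it was at 0.0306.

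**Figure D3:**
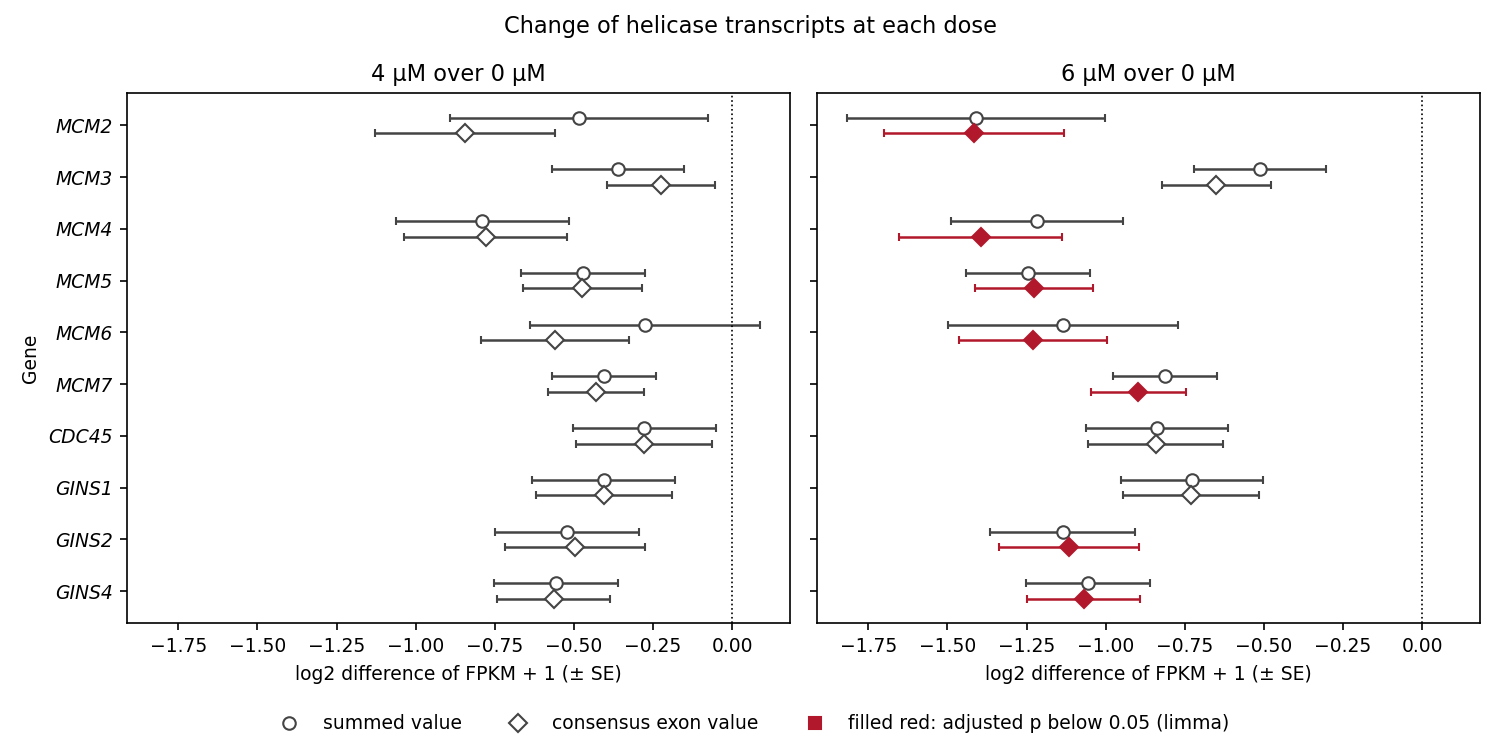
Log2 differences of FPKM + 1 with their SE from limma (horizontal axes) for the 10 genes (rows), 4 µM over 0 µM on the left and 6 µM over 0 µM on the right, as circles for the summed value and diamonds for the consensus exon value, with filled red symbols where the adjusted p was below 0.05. All symbols lie left of 0, and red appears only for 7 diamonds at 6 µM, with MCM3, CDC45 and GINS1 left out.

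The number of calls at 6 µM depended on which libraries were fitted, those at 4 µM included. The 7 consensus calls became 9 without replicate 3 at 6 µM and stayed at 7 in number without replicate 3 at 4 µM. They became 2 without replicate 1 at 4 µM, 1 without replicate 2 at 4 µM or replicate 1 or 2 at 0 µM, and 0 without replicate 3 at 0 µM or replicate 1 or 2 at 6 µM. Over all genes 560 were called with all libraries, 568 without replicate 3 at 6 µM and 466 without replicate 3 at 4 µM. The count was 147 and 114 without replicate 1 and 2 at 4 µM, and 289, 79 and 113 without replicate 1, 2 and 3 at 0 µM. Without replicate 1 and 2 at 6 µM it was 18 and 27. MCM5 passed in 5 of these 9 fits, and its adjusted p ran from 0.00861 to 0.107. The differences themselves stayed negative for all 10 members in each of them, between -1.65 and -0.56. Rescaled to a fixed FPKM sum per library, as in TPM, no member passed with either value. Over all genes that scaling called 16 on summed values, 1 of them lower, and 98 on consensus exon values. That rescaling carries the unusual sum of replicate 3 at 0 µM into every gene and moved the median difference of all genes at 6 µM to 0.24. The members' median was then -0.85.

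At 4 µM the differences from 0 µM were smaller, with a median of -0.44 over the members and 0.00 over all genes. No member passed limma's test with either value, where 0.0651% of all genes passed on summed values and 0.0822% on consensus exon values. At an unadjusted threshold of 0.05, 5 members were lower, MCM4, MCM5, MCM7, GINS2 and GINS4, against 4.63% of all genes. In 6 members, those 5 and MCM3, the 4 µM libraries lay below all 0 µM libraries, against 8.41% of all genes. MCM4 had the largest difference, -0.79 ± 0.27 (adjusted p = 0.386, limma), and MCM6 the smallest, -0.28 ± 0.36 (adjusted p = 0.796). Rescaled to a fixed FPKM sum, MCM6 was at 0.07 and CDC45 at 0.06, both still below the median of all genes, which that scaling moved to 0.32.

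Between 6 and 4 µM, which share no control library, the members' median difference was -0.53, against -0.03 over all genes. No member passed limma's test with either value, where 0.057% of all genes passed on summed values and 0.0576% on consensus exon values. In MCM5, MCM7 and GINS4 the 6 µM libraries lay below all 4 µM libraries, an arrangement of 7.29% of all genes. The unadjusted p was below 0.05 for 6 members, against 2.91% of all genes. MCM5 was at -0.77 ± 0.20 (adjusted p = 0.956, limma) and MCM3 at -0.15 ± 0.21 (adjusted p = 0.977). The comparisons of 4 and of 6 µM with 0 µM share the 0 µM libraries, so their values stand side by side here and are not counted as 2 separate results.

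A line over all 3 doses uses every library at once. With the summed value it fell in all 10 members, and 3 of them passed limma's test. GINS4 fell by 0.17 ± 0.03 log2 units per µM (adjusted p = 0.0391, limma). MCM5 fell by 0.19 ± 0.04 (adjusted p = 0.042) and MCM7 by 0.13 ± 0.03 (adjusted p = 0.0477). Of all genes 0.846% had a falling line that passed. MCM4 and GINS2 both had an adjusted p of 0.0507. With the replicate number as a block MCM5 was at an adjusted p of 0.05, on the threshold and not below it, and 2 members passed, against 0.676% of all genes with a falling line. On consensus exon values 7 members passed, the same 7 as at 6 µM, against 5.17% of all genes. The block on that value brought this to all 10, where 6.71% of all genes passed. Rescaled to a fixed FPKM sum, no member passed along the line with either value. Over all genes 48 then passed on summed values, 1 of them with a falling line, and 200 on consensus exon values. On summed values no member passed in 7 of the 9 fits that leave out a library. Without replicate 3 at 4 µM 3 did, MCM5, MCM6 and GINS4, and without replicate 3 at 6 µM 2 did, MCM4 and GINS2, so MCM7 passed in none. On consensus exon values these fits gave 9 without replicate 3 at 4 µM, 8 without replicate 3 at 6 µM, 5 without replicate 2 or 3 at 0 µM, 1 without replicate 2 at 6 µM, 0 without replicate 1 at 6 µM and 7 in the remaining ones. Over all genes the line called 206 on summed values, and 185 and 94 without replicate 3 at 4 and at 6 µM. In the 7 fits without a member it called 0 to 86 genes. On consensus exon values it called 1030, and 971 and 867 without replicate 3 at 4 and at 6 µM. The count was 370 and 432 without replicate 2 and 3 at 0 µM, and 193 and 111 without replicate 2 and 1 at 6 µM. In the remaining fits it was 544 to 751.

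Levels within the complex differed more between subunits than between doses. MCM2 to MCM7 act in equal numbers in the ring, yet at 0 µM MCM7 averaged 126.3 ± 18.0 FPKM and MCM2 32.1 ± 13.8 FPKM (SD, n = 3). The order at 0 µM was MCM7, MCM3, MCM4, MCM5, GINS2, MCM6, MCM2, CDC45, GINS1 and GINS4. From MCM5 to CDC45 the libraries of each gene overlapped with those of the next, and the other neighbours were separate. At 6 µM the first 3 and the last 2 places were held by the same genes, MCM7 and MCM3 overlapped, and only MCM3 and MCM4, and GINS1 and GINS4, were separate. The 6 ring subunits together came to 401.1 ± 32.7 FPKM at 0 µM, 297.1 ± 45.8 FPKM at 4 µM and 214.4 ± 39.6 FPKM at 6 µM. Summed over consensus exon values they came to 409.0, 355.3 and 407.4 FPKM at 0 µM, 250.4, 266.8 and 314.6 FPKM at 4 µM, and 174.4, 164.9 and 234.9 FPKM at 6 µM, with no overlap between doses.

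The make-up of that sum shifted slightly. By consensus exon values MCM3 made up 28.3 ± 1.09% of it at 6 µM and 22.0 ± 4.45% at 0 µM, and MCM7 made up 35.3 ± 2.94% at 6 µM and 32.1 ± 2.43% at 0 µM (SD, n = 3). MCM4 made up 12.7 ± 1.70% at 6 µM and 16.6 ± 2.13% at 0 µM, and MCM2 5.68 ± 0.41% and 8.12 ± 3.14%. Replicate 1 at 0 µM weighs on these gaps. In replicates 1, 2 and 3 at 0 µM the shares were 17.0, 25.5 and 23.5% for MCM3 and 19.0, 15.4 and 15.3% for MCM4. For MCM2 they were 11.7, 6.67 and 5.97%. These shares are a description, since they were computed on members chosen with the results known, and the gap for MCM7 is about as large as the spread between libraries. The consensus value of the highest subunit was 5.57 to 7.28 times that of the lowest in the libraries at 6 µM and 3.49 to 5.70 times in those at 0 µM.

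**Figure D4:**
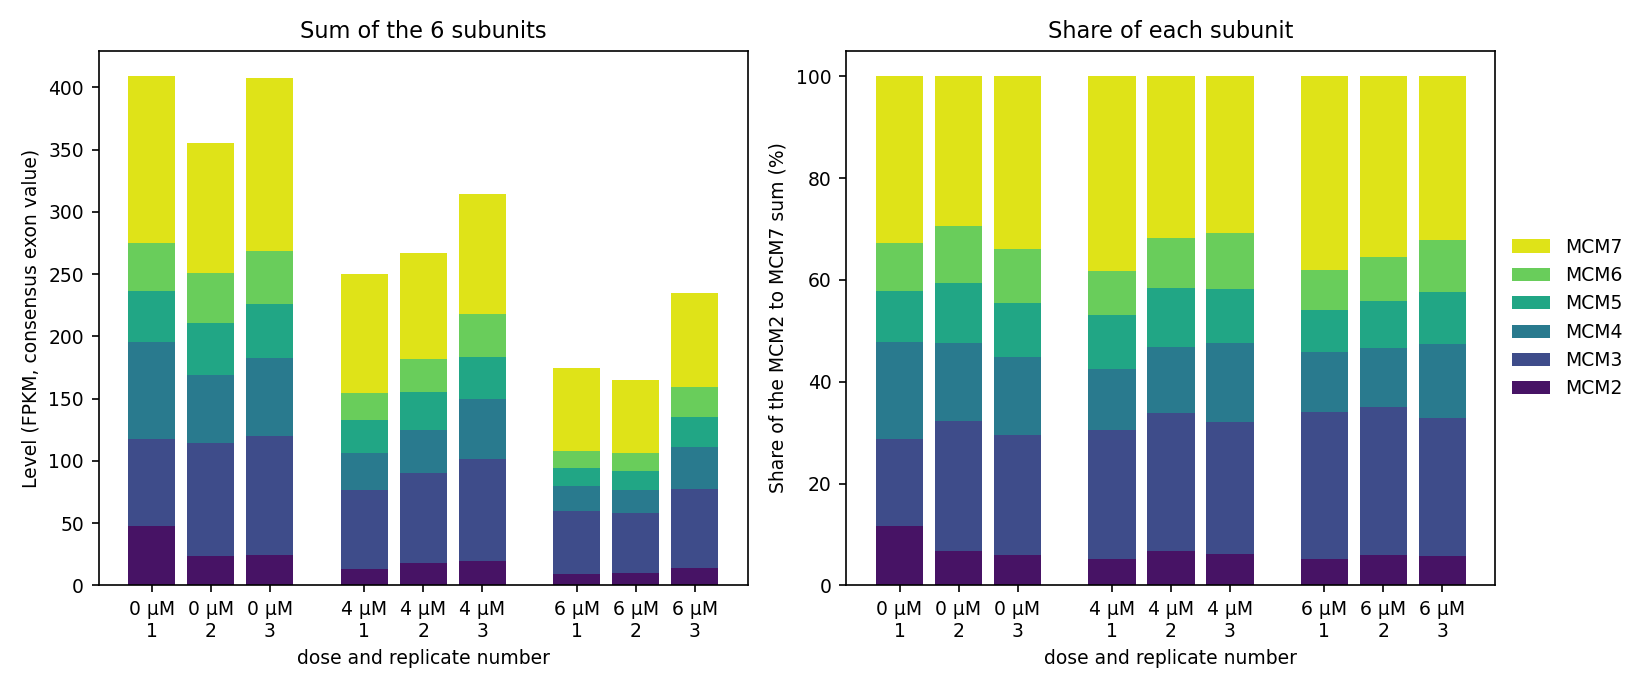
Consensus exon values of MCM2 to MCM7 in each of the 9 libraries, stacked in FPKM on the left and as a percentage of their sum on the right, with doses of 0, 4 and 6 µM in order and replicate numbers below. The sum is between 164.9 and 234.9 FPKM at 6 µM and between 355.3 and 409.0 FPKM at 0 µM, and MCM7 and MCM3 are the largest segments except in replicate 1 at 0 µM, where MCM4 is above MCM3.

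Replicate 3 was the least lowered library. At 4 µM it was the highest of its dose for 8 members with the summed value and for all 10 with the consensus exon value, and at 6 µM the same counts held. Over all genes replicate 3 was the highest in 38.8% and 42.6% at 4 µM, and in 34.9% and 41.1% at 6 µM. Against the 0 µM library of the same number, which carries the same tag in the descriptions, the members' median difference at 6 µM was -1.18 for replicate 1, -1.19 for replicate 2 and -0.68 for replicate 3. All 10 members were lower at 6 µM in each of the 3 pairs. At 4 µM the pair medians were -0.66, -0.42 and -0.28, and MCM2 in replicate 2 and MCM6 in replicate 3 were the exceptions with higher summed values. By consensus exon values all 10 members were lower at 4 µM too in each pair. Whether depth, which was lowest in replicate 3 at 4 µM, has a part in this was not tested.

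**Figure D5:**
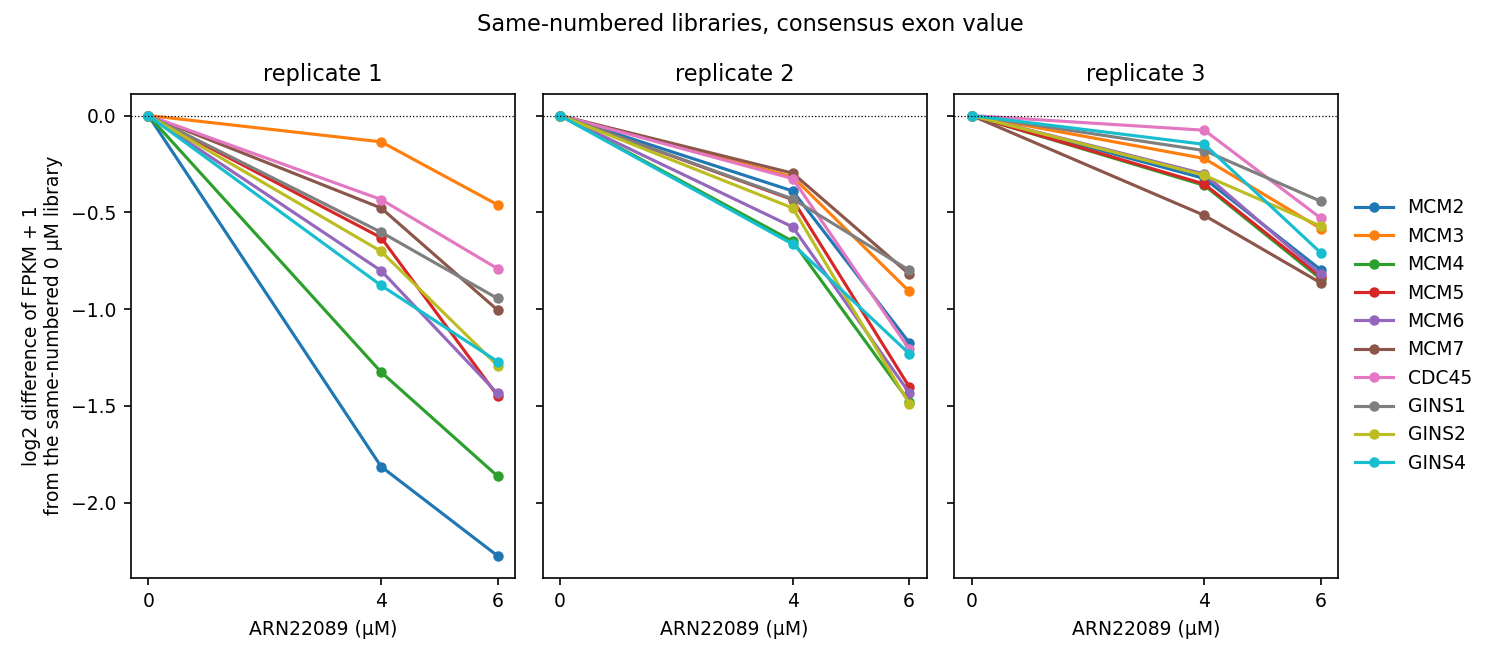
For replicates 1, 2 and 3 (panels), log2 difference of FPKM + 1 from the 0 µM library of the same number (vertical axis, consensus exon value) at 0, 4 and 6 µM (horizontal axis), with 1 line per gene. Every line descends at each step, and at 6 µM the median over the 10 genes is -1.28, -1.22 and -0.75 in replicates 1, 2 and 3. At that dose the line of MCM3 is closest to 0 in replicate 1 and that of GINS1 in replicate 2.

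Members varied together. Over the 9 libraries the Pearson correlations of log2 values between pairs of members ran from 0.512 to 0.984 with the summed value, with a median of 0.856 over 45 pairs, and from 0.673 to 0.987 with a median of 0.932 with the consensus exon value. These are descriptions, since all points share the 9 libraries and the doses. Against the mean of the members' standardised summed values, GINS2 (0.986) and GINS4 (0.981) were the most typical members and MCM2 (0.797) and MCM3 (0.792) the least. The 6 tested genes outside the list with the most similar pattern were SDC1 (Pearson r = 0.991, n = 9 libraries), which encodes a cell surface proteoglycan, CBX1 (0.988), a chromatin protein, DTL (0.984), a part of the ubiquitin ligase that marks CDT1 for destruction, RPA2 (0.982), a subunit of the protein that coats single-stranded DNA, FIGNL1 (0.981) and RRM1 (0.981), the large subunit of ribonucleotide reductase. With the consensus exon value MCM2 (0.898) and MCM3 (0.919) were again the least typical members. SDC1, CBX1 and RRM1 were among the 6 nearest genes with that value too. SDC1 was at 7.815, 7.436 and 7.498 FPKM at 0 µM, 5.136, 5.311 and 6.725 FPKM at 4 µM, and 3.438, 3.116 and 4.997 FPKM at 6 µM.

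Of genes that load the ring onto origins, 10 were listed and tested, with a median difference at 6 µM of -0.64. None passed limma's test of 6 with 0 µM with the summed value, while 6 were lower by their unadjusted p, against 9.65% of all genes. Along the line over doses all 10 estimates were negative and 2 passed, CDC6 and ORC6, against 0.846% of all genes with a falling line. CDC6, the ATPase that brings the ring to the origin, was at 9.33, 12.5 and 13.1 FPKM at 6 µM and 35.0, 33.5 and 22.4 FPKM at 0 µM, a difference of -1.29 ± 0.22 (adjusted p = 0.0551, limma). ORC6, a subunit of the origin recognition complex, differed by -0.79 ± 0.16 (adjusted p = 0.069, limma). Their adjusted p-values for the line were 0.0391 and 0.0477. On consensus exon values 3 of the list passed with a lower level at 6 µM, where 2.79% of all genes did. They were these 2 and ORC1 (-1.30, adjusted p = 0.0466, limma). ORC1 was named after its value was seen. In the blocked fit no gene of the list passed along the line with the summed value.

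Of 13 genes that activate the ring, the median difference at 6 µM was -0.76, and 12 differences were negative. The exception, named after its value was seen, was the kinase CDK2, at 78.8, 78.4 and 54.6 FPKM at 6 µM and 52.3, 54.5 and 55.3 FPKM at 0 µM, a difference of 0.36 ± 0.16 (adjusted p = 0.29, limma). None passed at 6 µM with the summed value, and 6 passed with a lower level on the consensus exon value, where 2.79% of all genes did. Along the line 1 falling gene passed with the summed value, against 0.846% of all genes. It was DONSON (adjusted p = 0.0497, limma), named after its value was seen. MCM10, which helps the active helicase off the origin, was at 3.07, 3.68 and 6.34 FPKM at 6 µM and 10.6, 13.2 and 11.9 FPKM at 0 µM. Its difference was -1.31 ± 0.26 (adjusted p = 0.0662, limma) with the summed value and -1.27 ± 0.24 (adjusted p = 0.0336) with the consensus exon value. GINS3, the GINS subunit outside the list, was at 9.61, 8.46 and 11.02 FPKM at 6 µM and 11.8, 14.4 and 11.3 FPKM at 0 µM, a difference of -0.34 ± 0.16 (adjusted p = 0.308, limma). On consensus exon values the sign turned, to 0.06 ± 0.36 (adjusted p = 0.941, limma). That value was 3.58 FPKM in replicate 3 at 0 µM, where the main transcript of GINS3 was 833 bases long, against at least 2115 bases in the other libraries. No test compared GINS3 with the other GINS genes.

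Of 14 genes of the fork and of helicase unloading, the median difference at 6 µM was -0.69, with no call with the summed value. With the consensus exon value 7 passed with a lower level, where 2.79% of all genes did. Along the line 2 falling genes passed with the summed value, POLA2 and CLSPN, against 0.846% of all genes. POLA2, a subunit of the polymerase that starts new strands, was at 8.48, 9.23 and 13.4 FPKM at 6 µM and 23.2, 37.2 and 20.3 FPKM at 0 µM, with an adjusted p of 0.0391 for the line (limma). CLSPN, a fork protein of the replication checkpoint, was at 3.10, 2.28 and 3.59 FPKM at 6 µM and 9.28, 6.46 and 13.7 FPKM at 0 µM, with an adjusted p of 0.0451. With the replicate number as a block CLSPN passed (adjusted p = 0.0331, limma) and POLA2, at 0.05, did not fall below the threshold. Of the 4 MCM relatives outside the ring, 3 were tested, and none passed at 6 µM, with a median of -0.29.

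Genes of mitosis were lower as well. The 13 listed had a median difference at 6 µM of -1.10, and all 13 differences were negative. Of them 3 passed with the summed value, where 16 of 12286 genes passed with a lower level. All 13 passed with the consensus exon value, where 2.79% of all genes did with a lower level. The 3 were MKI67, the proliferation antigen, AURKB, a kinase of chromosome segregation, and NUSAP1, a spindle protein, each with an adjusted p of 0.0476 (limma) and differences of -1.15, -1.09 and -1.14. Along the line all 13 estimates were negative and 8 passed, against 0.846% of all genes with a falling line. The 8 were MKI67, AURKB and NUSAP1 with KIF20A, TOP2A, PLK1, AURKA and CCNB2. With the block none of the 13 passed at 6 µM with the summed value. Whether the helicase genes and the mitotic genes differ in the size of their change was not tested.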

How the data were processed

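Doses were read from the treatment labels, and sample titles gave the replicate numbers. The deposited files are 1 transcript assembly per library. Cufflinks 2.2.1 made them, per the submitters' processing notes, which also list TopHat2 2.1 with Bowtie2 2.2.7, Trimmomatic, R 4.0.3 and SAMtools 1.9. The authors deposited FPKM as text in an attribute column with other content (coverage, confidence bounds), and the FPKM were used as deposited, with no scaling between libraries. The notes name GRCh37, but 512 transcripts lie on scaffolds named only in GRCh38 and 0.764% of 193769 spliced transcripts have an intron at a GRCh37 GENCODE position, so coordinates are GRCh38.

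In Python 3.11.15 (pandas 2.3.3), 96% of spliced transcripts were named by strand, RefSeq GRCh38 overlap and GENCODE intron lengths. A single-exon transcript needed 50% of its length in 1 gene never assembled with introns. Names were extended with RefSeq synonyms after a first fit had been seen, in which the adjusted p of MCM5 at 6 µM was 0.0518; the extended naming gives 0.0507, and no member's call changed. The design had assumed a gene table, and naming was the added step. Overlapping, antisense and near-identical genes are uncertain, as no source here tells if the reads kept strand.

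A mean of 1 FPKM or more was required (12286 genes summed, 12159 consensus), and these genes entered 1 limma 3.58.1 fit (R 4.3.3) of log2(FPKM + 1) over 9 libraries with a mean-variance trend, Benjamini-Hochberg threshold 0.05 and 6 residual degrees of freedom (7 for the line over doses). The fit was tested on simulated data. A listed marker gene is not reported here. Depth in reads is unknown, so no counting interval is given. The members and gene lists were chosen with earlier results of these data known, as were the promoter words, and the consensus exon value was known from them too. Genes named in the text are the members, GINS3, MCM10, at most 12 listed genes that passed limma's test in any comparison with the summed value, by smallest p at 6 µM, and the 6 genes most like the members' mean pattern.

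Libraries with the same replicate number carry the same tag in the descriptions. They were treated as pairs only in the same-numbered differences and in the fits that add the replicate number as a block. All other fits, the main one included, left the libraries unpaired. Correlations of deviations from the dose means were between -0.016 and 0.122 for 9 same-numbered pairs and between -0.085 and 0.031 for 18 others (summed value), and 0.003 to 0.197 and -0.107 to 0.009 with the consensus exon value.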

Additional observations from a re-analysis of the deposited data

How the results depend on the processing

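Over the alternatives, the members' differences were negative in 330 of 330 values for 6 with 0 µM, 325 of 330 for 4 with 0 µM, 329 of 330 for 6 with 4 µM and 320 of 320 along the line over doses. The exceptions were MCM6 and CDC45 at 4 with 0 µM rescaled to a fixed sum (0.0667 and 0.0620), MCM3 and CDC45 likewise on the consensus exon value (0.125 and 0.0609), MCM6 at 4 with 0 µM without replicate 1 at 4 µM (0.0159) and MCM3 at 6 with 4 µM without replicate 2 at 6 µM (0.07). With consensus exon values these last 2 differences stayed negative without any 1 library, the lowest being -0.73 and -0.55, against -0.73 and -0.33 on summed values. Rescaling moved the median of all genes at 4 with 0 µM to 0.32. The cause of the other exceptions was not tested.

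Counts below are of members or genes called by limma. As first given, 6 with 0 µM called 0 members and 39 genes, the line 3 and 206, 4 with 0 µM 8 genes and 6 with 4 µM 7. The consensus exon value gave 7 members and 560 genes at 6 µM and 7 and 1030 along the line. Centring it on the median gave 7, 522, 7 and 997. Rescaling it gave 98 genes at 6 µM, 14 at 4 µM and 0 members along the line. The replicate block on it gave 9, 692, 10 and 1339, while the replicate block on the summed value gave 2, 4 and 1 genes for 4 with 0, 6 with 0 and 6 with 4 µM and changed the line's members to 2. The highest single transcript gave 18 genes at 6 µM, and 1 member and 105 genes along the line. With 1 member at 6 µM stood pseudocounts of 0.1 (46 genes) and 5 (39), no filter on low values (54), and a mean of at least 5 FPKM (77). Pseudocount 5 gave 5 genes at 4 µM, 4 for 6 with 4 µM, and 5 members and 209 genes along the line. The mean of at least 5 FPKM gave 5 genes at 4 µM and 2 for 6 with 4 µM. Along the line it gave 5 members and 264 genes. Rescaling gave 16, 4 (6 with 4 µM), 48 and 0 members along the line, and centring 3 for 6 with 4 µM. Only the 6 libraries compared gave 15 and 4 genes. A variance prior without a trend gave 16, and along the line 1 member and 120 genes.

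Leaving out 1 library gave, with the summed value, 0 to 2 members and 15 to 80 genes at 6 µM, 4 to 31 genes at 4 µM, 2 to 14 for 6 with 4 µM, and 0 to 3 members and 0 to 185 genes along the line. On the consensus exon value it gave 0 to 9 members and 18 to 568 genes at 6 µM, 8 to 24 at 4 µM, 5 to 15 for 6 with 4 µM, and 0 to 9 members and 111 to 971 genes along the line. Those fits, both consensus scalings and names without synonyms were chosen after seeing the data. Names without synonyms moved no count of members.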
